A study of Mus musculus with 23 samples.

Results

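The transgelin and calponin family consists of small actin-binding proteins that carry a calponin-homology domain. Its members here were all probe sets annotated to the gene symbols Tagln, Tagln2, Cnn1 and Cnn2, and each of these 4 genes, of 8131 genes named on the array, was represented by 1 probe set. All 4 probe sets passed the filter on dim signals. Tagln (93541_at) lies at chr9:45929628-45936058, Tagln2 (94310_at) at chr1:172500246-172507375, Cnn1 (99942_s_at) at chr9:22099221-22109221 and Cnn2 (94004_at) at chr10:79988600-79995400, as RefSeq places the genes on GRCm38.p6. The suffix of the Cnn1 probe set marks probes that may match more than 1 transcript, so its values may include signal of others.

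Total RNA of mouse embryonic stem (ES) cells was hybridised to 23 oligonucleotide arrays, which give 1 intensity per probe set. The 4 ES lines were E81 (-/-), E100 (-/-), E99 (+/-) and the wild-type line E14. Each was transfected with SRF-VP16, with the control SRFdM-VP16 or with empty vector. RNA was collected 72 hours later. SRF-VP16 fuses serum response factor (SRF) to the strong activation domain of the viral protein VP16, and all groups had therefore been through a transfection. Neither the gene to which +/- and -/- refer nor what dM alters is stated in the labels. Each of the 12 groups had 2 arrays, except E100 with vector, which had 1. Nothing states whether duplicates were separate cultures, so the tests rest on a spread between samples that may be technical. In whole cultures, fewer cells of a type and less RNA per cell cannot be told apart.

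Tagln encodes transgelin, also called SM22 alpha, and Cnn1 encodes calponin 1, and both are classical early markers of smooth muscle that bind actin filaments. Tagln2 and Cnn2 encode paralogues that are found in many non-muscle cells. SRF binds CArG boxes, short elements with a CC start, an A- and T-rich core and a GG end, and it acts on smooth-muscle genes with cofactors of the myocardin family. ES cells are pluripotent and hold little smooth-muscle protein.

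The start regions of 3 of the 4 members, Tagln2, Cnn1 and Cnn2, are shown because the transfected activator acts through DNA elements. The source of the windows held no entry for Tagln, so its start region was not searched for a CArG box. They are RefSeq windows on the plus strand of GRCm38.p6 around each annotated transcription start, at chr1:172499996-172500295 for Tagln2, chr9:22099003-22099302 for Cnn1 and chr10:79988350-79988649 for Cnn2. Capitals mark a CArG box.
Tagln2: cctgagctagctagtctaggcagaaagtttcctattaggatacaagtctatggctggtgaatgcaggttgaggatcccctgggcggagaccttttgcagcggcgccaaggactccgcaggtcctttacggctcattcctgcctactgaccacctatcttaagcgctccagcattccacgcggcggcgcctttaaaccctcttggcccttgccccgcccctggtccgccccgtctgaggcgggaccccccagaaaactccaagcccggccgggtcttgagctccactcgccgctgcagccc
Cnn1: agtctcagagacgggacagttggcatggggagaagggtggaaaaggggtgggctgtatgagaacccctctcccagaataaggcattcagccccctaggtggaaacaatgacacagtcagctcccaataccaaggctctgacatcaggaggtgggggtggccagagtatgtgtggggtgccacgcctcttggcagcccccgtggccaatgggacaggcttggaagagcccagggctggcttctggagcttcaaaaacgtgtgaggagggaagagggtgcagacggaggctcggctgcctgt
Cnn2: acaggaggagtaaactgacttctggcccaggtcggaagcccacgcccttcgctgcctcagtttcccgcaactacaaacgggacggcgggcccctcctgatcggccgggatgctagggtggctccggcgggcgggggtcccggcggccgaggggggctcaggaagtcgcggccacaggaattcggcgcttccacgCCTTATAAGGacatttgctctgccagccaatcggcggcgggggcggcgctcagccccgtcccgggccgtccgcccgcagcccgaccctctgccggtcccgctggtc
Of these 3 windows, the Cnn2 window held a match to the CArG box, CCTTATAAGG, at positions -56 to -47 from the start. The match reads the same on both strands, and it contains the motif TATAA, which was therefore not a separate element. Searched on both strands, a CArG box occurred in 535 of 32851 such windows of all genes (1.63%) and TATAA in 24.9%. The Tagln2 and Cnn1 windows held neither motif, which says only that these letters are not in these windows. GC content was 61.3% in the Tagln2 window, 59.3% in the Cnn1 window and 70.7% in the Cnn2 window.

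Median intensity per array lay between 54 and 209, and between 23.4% and 43.6% of an array's values were at or below 0. Values below 58, the 40th percentile of all values, were set to that floor before the logarithm, so a change that starts from the floor is a lower bound. One array stood apart: replicate 1 of E81 with SRFdM-VP16 had the most values at or below 0 and its median correlation with the remaining arrays was the lowest (0.878). Its log2 ratio of the 5' to the 3' Gapdh probe sets, a sign of RNA or labelling quality, was also the lowest at -0.928. The ES cell genes were present throughout, with 11 to 13 of 13 above the floor on each array. Their summed intensity was lower on -/- SRF-VP16 arrays, at 39790 to 67770, against 57540 to 113600 on -/- SRFdM-VP16 arrays and 81230 to 113400 on -/- vector arrays. The sum of 57540 came from the array that stood apart, and the next lowest -/- SRFdM-VP16 sum was 88330. Markers of differentiated smooth muscle were mixed, and of 8 listed 5 were on the array. Smtn was above the floor on 0 arrays, Myh11 on 1 and Itga8 on 7, and Des and Actg2 on all 23. Smtn had a median of -801, which does not show that its transcript was absent. The summed intensity of the 5 was 9613 to 11190 on -/- SRF-VP16 arrays, against 1887 to 6602 on -/- SRFdM-VP16 arrays. Most of it lay in Actg2, at 8559 to 10458 against 1658 to 6201.

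Tagln was far higher with SRF-VP16 in both -/- lines. In E81 its intensity was 23513 and 24940 with SRF-VP16, against 92 and 165 with SRFdM-VP16 and 73 and 212 with vector. In E100 it was 29157 and 34217 with SRF-VP16, against 116 and 226 with SRFdM-VP16 and 200 with vector. The 4 SRF-VP16 arrays thus lay far above each of the 7 control arrays. The mean was 27960 ± 4810 with SRF-VP16 and 149.8 ± 59.2 with SRFdM-VP16 (SD, n = 4 each), a rise of 196-fold (log2 change 7.61 ± 1.00 SE, limma adjusted p = 0.00093). In that comparison 2.82% of the 9643 probe sets tested passed the adjusted threshold of 0.05, and Tagln was the only member among them. Each -/- line alone gave nearly the same ratio, 196.5-fold in E81 and 195.1-fold in E100. The difference between those 2 effects was 0.01 ± 1.99 on the log2 scale (95% interval -4.28 to 4.30), in a comparison where 0.145% of probe sets were called and the median of all probe sets was 0.52.

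The plots of intensity by line and plasmid show Tagln in the other lines at intermediate levels. In E99, labelled +/-, Tagln was 6899 and 5651 with SRF-VP16, against 594 and 490 with SRFdM-VP16 and 621 and 350 with vector. The 2 SRF-VP16 arrays did not overlap with the 4 control arrays, as held for 6.84% of probe sets in that line. The change was 11.6-fold (3.53 ± 1.41), with an unadjusted p of 0.0257 in limma's fit and an adjusted p of 0.93, so it did not pass; 0.0415% of probe sets were called there. In wild-type E14 it was 16237 and 5805 with SRF-VP16, against 591 and 11738 with SRFdM-VP16 and 263.5 and 9417 with vector. The groups overlapped, because the second array of each control was as bright as the SRF-VP16 arrays. The change was 3.69-fold (1.88 ± 1.41, adjusted p = 1.00), where 0.0207% of probe sets were called. Left without replicate 1 of SRFdM-VP16 the E14 change was -0.27, and without both control arrays numbered 2 it was 4.04 ± 0.72 (adjusted p = 0.098).

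**Figure D1:**
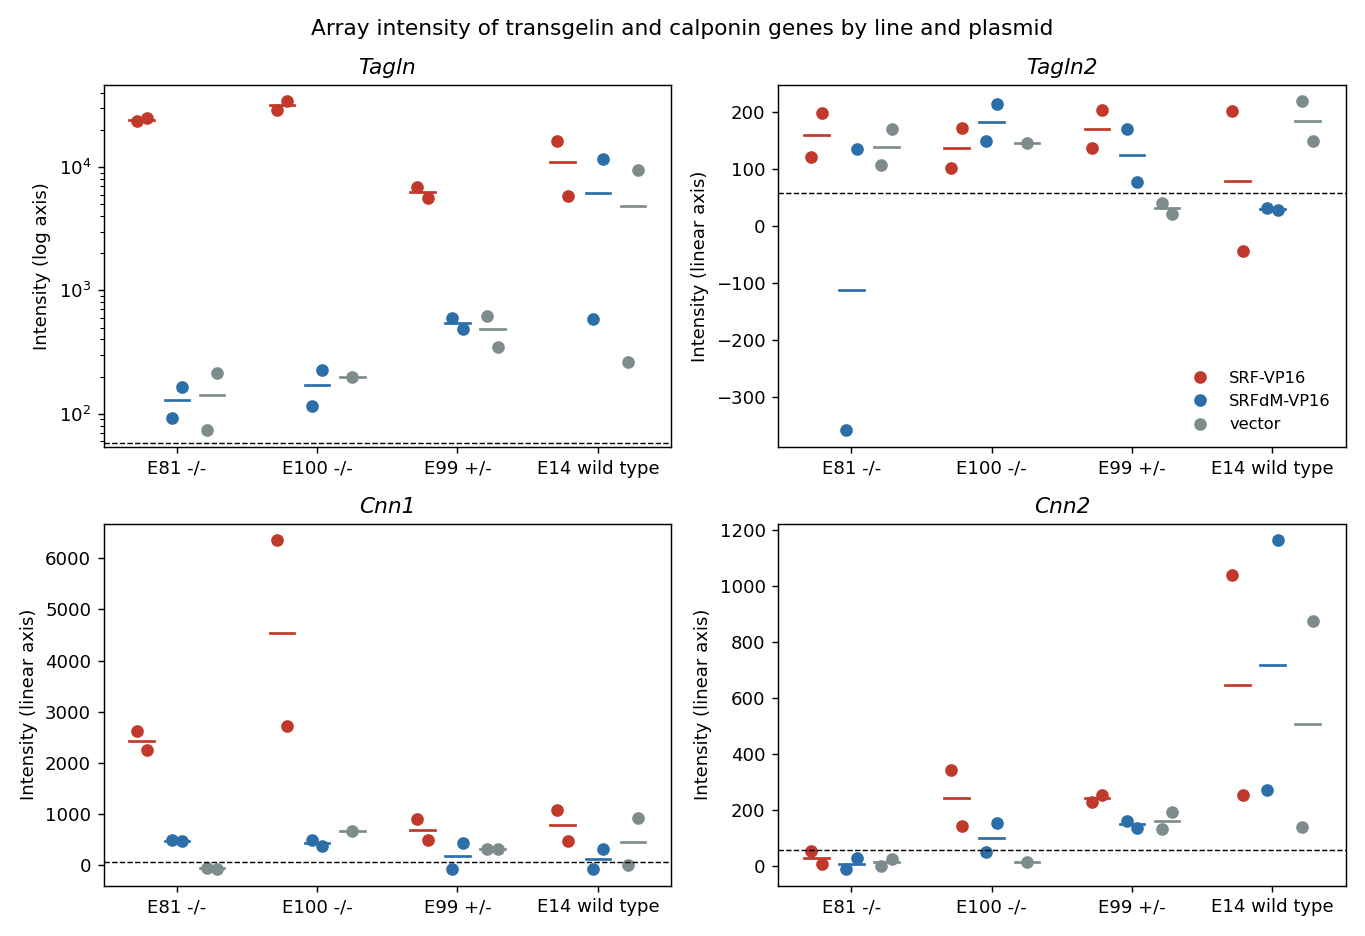
Intensity of the 4 genes on each array, by line, with SRF-VP16 left of SRFdM-VP16 and vector; points are arrays, short bars are group means, and the dashed line is the floor of 58. The Tagln axis is logarithmic and the others are linear; Tagln and Cnn1 on the 4 -/- SRF-VP16 arrays stand above their controls, whereas Tagln2 does not exceed 219.1.

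Over the 4 lines together Tagln rose 35.8-fold (5.16 ± 0.70, adjusted p = 0.0017), in a comparison in which 1.96% of probe sets were called. The order of its 12 group means on the log2 scale began with the SRF-VP16 groups of E100, E81, E14 and E99. E14 with SRFdM-VP16 and with vector came next, then both E99 control groups, and the 4 control groups of the -/- lines came last. E100 and E81 with SRF-VP16 did not overlap with each other or with the group below them. From E14 with SRF-VP16 down to E99 with vector each group overlapped with the next in the order, and so did the -/- control groups.

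Cnn1 was also higher with SRF-VP16 in the -/- lines, by less than Tagln and with more scatter. Calponin 1 binds actin and inhibits the actin-activated myosin ATPase in smooth muscle. In E81 it was 2626 and 2248 with SRF-VP16, against 485 and 472 with SRFdM-VP16 and -53 and -68 with vector. In E100 it was 6356 and 2725 with SRF-VP16, against 498 and 367 with SRFdM-VP16 and 675 with vector. All 4 SRF-VP16 arrays lay above all 7 controls. A full separation in this direction was found for 4.64% of probe sets against SRFdM-VP16 and for 4.33% against vector, Tagln and Cnn1 included. The means were 3489 ± 1920 with SRF-VP16 and 455.5 ± 59.9 with SRFdM-VP16 (SD, n = 4 each). The change of 7.03-fold (2.81 ± 0.82) had an unadjusted p of 0.0044 and an adjusted p of 0.10 by limma, so Cnn1 did not pass the threshold. With vector as the control it was 4.01 and passed (adjusted p = 0.035), though this rests on E81. There both vector arrays were below the floor, and Cnn1 with SRF-VP16 was at least 41.9-fold higher (5.39 ± 1.16, adjusted p = 0.049). In E100 it was 6.17-fold higher than on the single vector array (2.62 ± 1.42, adjusted p = 0.55) and did not pass.

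In E99 and E14 Cnn1 reached lower levels with SRF-VP16 than in the -/- lines. Its log2 changes there (2.06 and 2.39) compare with 2.34 ± 1.16 in E81 and 3.28 ± 1.16 in E100 (limma adjusted p = 0.40 and 0.24). In E99 it was 899 and 492 with SRF-VP16, against -78 and 439 with SRFdM-VP16 and 321 and 314 with vector. In E14 it was 1079 and 478 with SRF-VP16, against -80 and 323 with SRFdM-VP16 and -1.6 and 916 with vector. Every SRF-VP16 array was thus above the SRFdM-VP16 arrays of its own line. In E99 the SRF-VP16 arrays also lay above vector, and 6.84% of probe sets were above both controls in that line. In E14 the groups overlapped through the vector array at 916, and no such share was computed there. The change was 2.06 ± 1.16 in E99 and 2.39 ± 1.16 in E14 (adjusted p = 1.00 in both), with 1 SRFdM-VP16 array at the floor in each line. With a floor at the 60th percentile these changes were 0.87 and 1.20, against 2.81 in the -/- lines. Over the 4 lines the change was 5.73-fold (2.52 ± 0.58) and passed (adjusted p = 0.042). That call held in 12 of the 27 alternatives run. With 1 array left out it held in 5 of the 16 cases, without replicate 2 of SRFdM-VP16 in E14, E99 or E81 or without replicate 2 of SRF-VP16 in E14 or E100, and was lost without any of the other 11 arrays (adjusted p from 0.068 to 0.12).

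**Figure D2:**
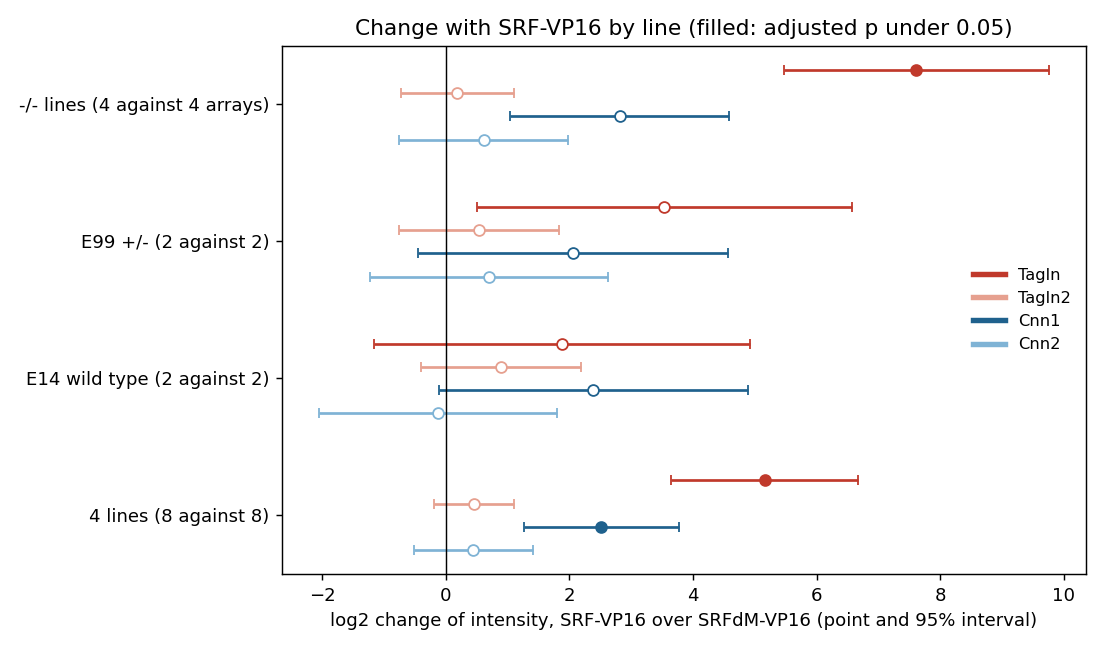
Change of intensity on the log2 scale, SRF-VP16 over SRFdM-VP16, for each gene by line (points, with 95% intervals from limma); filled points passed an adjusted p under 0.05. Tagln passed in the -/- lines and over 4 lines, and Cnn1 over 4 lines; the intervals of Tagln2 and Cnn2 include 0 in every row.

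Tagln2, the broadly expressed transgelin, gave a faint signal everywhere. It never reached 301, the 60th percentile of all values, and was above the floor on 17 of 23 arrays. In E81 it was 121 and 198 with SRF-VP16, against -359 and 135 with SRFdM-VP16 and 108 and 170 with vector. In E100 it was 102 and 173 with SRF-VP16, against 150 and 215 with SRFdM-VP16 and 146 with vector. The value of -359 came from the array that stood apart, and the other -/- arrays of all plasmids overlapped. The change in the -/- lines was 0.19 ± 0.42 (95% interval -0.73 to 1.10, adjusted p = 0.93), and without that array it was -0.12. In E99 it was 138 and 204 with SRF-VP16, against 171 and 78 with SRFdM-VP16 and 41 and 21 with vector. In E14 it was 202 and -44 with SRF-VP16, against 31 and 29 with SRFdM-VP16 and 219.1 and 150 with vector. Over the 4 lines the change was 0.45 ± 0.30 (95% interval -0.19 to 1.10, adjusted p = 0.59). In the order of its 12 groups every group overlapped with the next. Signal this close to the floor limits what could be detected for this gene.

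Cnn2, the broadly expressed calponin, differed more between lines than between plasmids. In E81 it was at or below the floor on all 6 arrays, with 53 and 5 with SRF-VP16, -12 and 28 with SRFdM-VP16 and -1 and 25 with vector. In E100 it was 342 and 143 with SRF-VP16, against 48 and 154 with SRFdM-VP16 and 13 with vector. The change in the -/- lines was 0.61 ± 0.63 (95% interval -0.75 to 1.97, adjusted p = 0.77), all of it from E100. In E99 it was 230 and 252 with SRF-VP16, against 161 and 135 with SRFdM-VP16 and 131 and 193 with vector, a separation like that of 6.84% of probe sets there, with a change of 0.71 ± 0.89 that did not pass. In E14 it was 1042 and 255 with SRF-VP16, against 273 and 1165 with SRFdM-VP16 and 140.4 and 874 with vector. Each E14 group held 1 bright and 1 dimmer array, and the change was -0.13 ± 0.89. Over the 4 lines it was 0.45 ± 0.45 (adjusted p = 0.75). In the order of the 12 groups the E14 groups came first and the 3 E81 groups and E100 with vector last, with overlap between every group and the next, counting values at the floor as equal.

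Whether the smooth-muscle and the broadly expressed paralogue changed by unequal amounts was asked within each array, by the log2 difference between the paralogues. Probe sets differ in their response, so only the change of this difference is meaningful. Where a paralogue is at the floor the difference is that to a constant, and its size depends on the floor. For Tagln minus Tagln2 in the -/- lines it averaged 7.59 ± 0.48 with SRF-VP16 and 0.16 ± 0.43 with SRFdM-VP16 (SD, n = 4 each). The change was larger for Tagln by 7.43 on the log2 scale (exact two-sided permutation p = 0.0286, the smallest that 70 assignments allow), with Tagln2 at the floor on 1 of the 8 arrays. For Cnn1 minus Cnn2 it averaged 4.81 ± 0.67 with SRF-VP16 and 2.61 ± 0.91 with SRFdM-VP16. The change differed by 2.20 on the log2 scale (p = 0.0286 by the same exact test). Both of these tests permuted the plasmids over the arrays of E81 and E100 together, and so ignored the line. Permuting within each line allows fewer assignments, so a p of 0.0286 could not be reached in that way, and this was not run. Cnn2 was at the floor on 5 of these 8 arrays, which include all 4 of E81, so in E81 the value follows Cnn1 alone and no fold between the paralogues is given. Whether these 2 changes differ from each other was not tested.

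Over the 4 lines, permuting the plasmids within each line, the change was larger for Tagln than for Tagln2 by 4.71 (exact permutation p = 0.00463), with Tagln2 at the floor on 4 of 16 arrays. It was larger for Cnn1 than for Cnn2 by 2.07 (exact permutation p = 0.00309), with Cnn2 at the floor on 5 and Cnn1 on 2 of the 16. The smallest p that these 1296 assignments allow is 0.00154. These were the 4 tests of this kind, and their p-values are not adjusted. In E14 the Tagln difference of the second SRFdM-VP16 array (7.66) lay above those of both SRF-VP16 arrays (6.33 and 6.65), while in the other 3 lines every SRF-VP16 array was the higher. For Cnn1 minus Cnn2 the groups overlapped in E99 alone. The Cnn1 result in the -/- lines did not pass with the arrays divided by their medians or with an inverse hyperbolic sine scale (exact permutation p = 0.0857 in each).

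**Figure D3:**
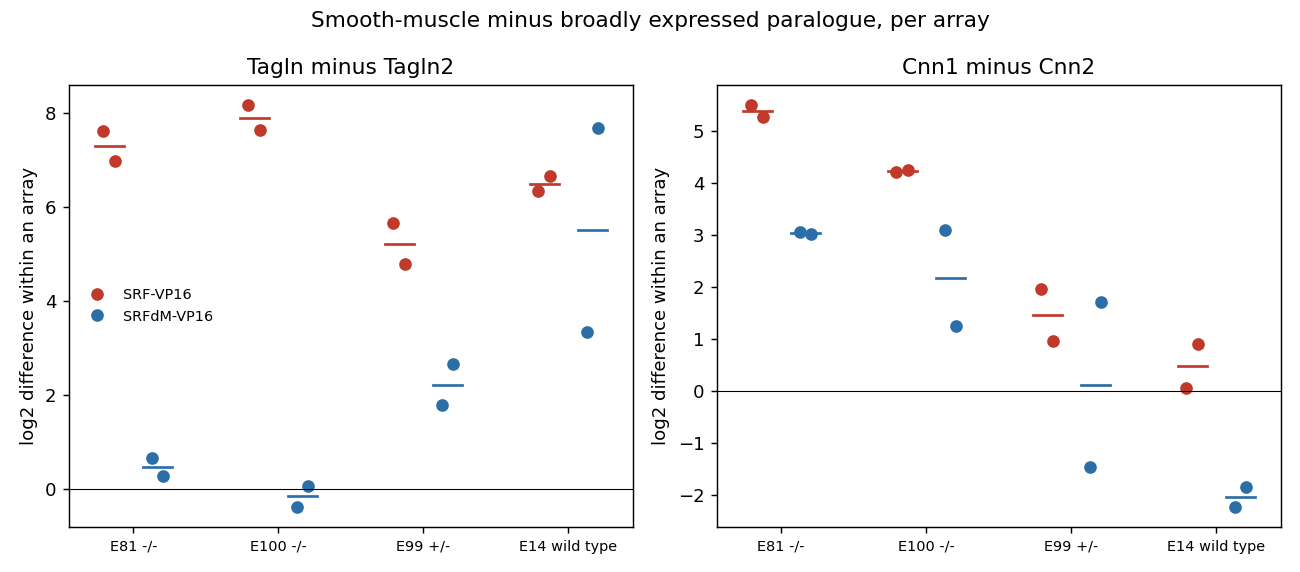
Log2 difference of intensity within each array, Tagln minus Tagln2 and Cnn1 minus Cnn2, by line, with SRF-VP16 left of SRFdM-VP16; points are arrays and bars are means. Heights are not comparable between the panels; in both -/- lines every SRF-VP16 array is above every SRFdM-VP16 array, and for Tagln the second SRFdM-VP16 array of E14 is as high as the SRF-VP16 arrays.

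The lines were then compared in the size of the effect and in the levels reached. Tagln on SRF-VP16 arrays was 23513 to 34217 in the -/- lines, against 5651 to 16237 in E14 and E99. Cnn1 on the same arrays was 2248 to 6356 in the -/- lines, against 478 to 1079 in E14 and E99. Neither gene overlapped between these line groups, which held for 4.97% of probe sets in that direction. The log2 effect of SRF-VP16 on Tagln was larger by 4.91 ± 1.41 in the -/- lines than in E14 and E99, with an unadjusted p of 0.0039 and an adjusted p of 0.28 in limma's fit, so this difference did not pass; 0.135% of probe sets were called. Without both E14 control arrays numbered 2 it was 3.83 ± 0.63 and passed (adjusted p = 0.046). For Cnn1 the difference in effect was 0.59 ± 1.16, for Tagln2 -0.53 ± 0.60 and for Cnn2 0.32 ± 0.89 (adjusted p of 0.94 or above for each). The number of wild-type alleles and the particular line cannot be told apart, since each -/- line is 1 line of its own and E99 and E14 are 1 line each.

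Without the activator, Tagln and Cnn2 were lower in the -/- lines than in wild type by values that did not pass. On the arrays with vector or SRFdM-VP16, Tagln was 73 to 226 in the -/- lines (n = 7), 350 to 621 in E99 (n = 4) and 263.5 to 11738 in E14 (n = 4). All 7 -/- arrays lay below all 8 arrays of the other lines, as was true of 3 probe sets in all (0.0311%). Against E14 the change was -3.77 ± 0.90, with an unadjusted p of 0.00098 and an adjusted p of 0.20 by limma, where 0.083% of probe sets were called. Cnn2 was -12 to 154 in the -/- lines, 131 to 193 in E99 and 140.4 to 1165 in E14, and its ranges overlapped slightly. Its change against E14 was -2.76 ± 0.57 (unadjusted p = 0.00029, adjusted p = 0.13 in limma's fit), with most -/- arrays at the floor. Tagln2 changed by 0.38 ± 0.38 and Cnn1 by 0.75 ± 0.74, and neither passed. Both Tagln and Cnn2 passed when replicate 1 of E14 with vector was left out (-5.06 and -3.42, adjusted p = 0.011 and 0.018) or replicate 1 of E14 with SRFdM-VP16 (-4.85 and -3.29, adjusted p = 0.030 and 0.036). Without both E14 control arrays numbered 2 the changes were -1.40 and -1.58 and did not pass (adjusted p = 0.67 and 0.65).

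Those 2 arrays stood apart from the first replicates of their groups in both genes. With Tagln at 11738 and 9417 and Cnn2 at 1165 and 874, they compare with Tagln at 591 and 263.5 and Cnn2 at 273 and 140.4 on the first replicates. The other E14 array with bright Cnn2 was replicate 1 of SRF-VP16 (Tagln 16237, Cnn2 1042). Over the 15 control arrays of all lines Tagln and Cnn2 were correlated (Pearson r = 0.946, Spearman rho = 0.850). These arrays share lines and plasmids, and without the 2 arrays farthest from the median of Tagln, which are these E14 arrays, r was 0.808 and rho was 0.766. Cnn2 was above the floor on 1 of the 7 -/- control arrays. On the rest it was a constant, so r includes the gap between the -/- and the other lines. Summed markers of other cells on the E14 controls numbered 2 and on those numbered 1 were 6596 to 8718 and 3670 to 4495 for primitive endoderm (6 of 11 genes above the floor on each). Sparc carried that gap at 3893 to 5182 and 920.1 to 1051, and without it the sums were 2703 to 3536 and 2619 to 3575. The sums were 921 to 1184 and 633 to 867.3 for fibroblasts and feeder cells (7 to 8 and 2 to 5 of 12 above the floor). For differentiated smooth muscle they were 8829 to 9904 and 7651 to 8427, and for trophoblast 292 to 517 and 212 to 272.9. Without Krt7 the trophoblast sums overlapped, at 129 to 340 and 212 to 272.9. Early mesoderm sums overlapped too, at 391 to 781 and 186 to 851.7. ES cell genes summed to 59580 to 77710 and 86080 to 93100. The part of these cells in the Tagln and Cnn2 values was not tested.

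**Figure D4:**
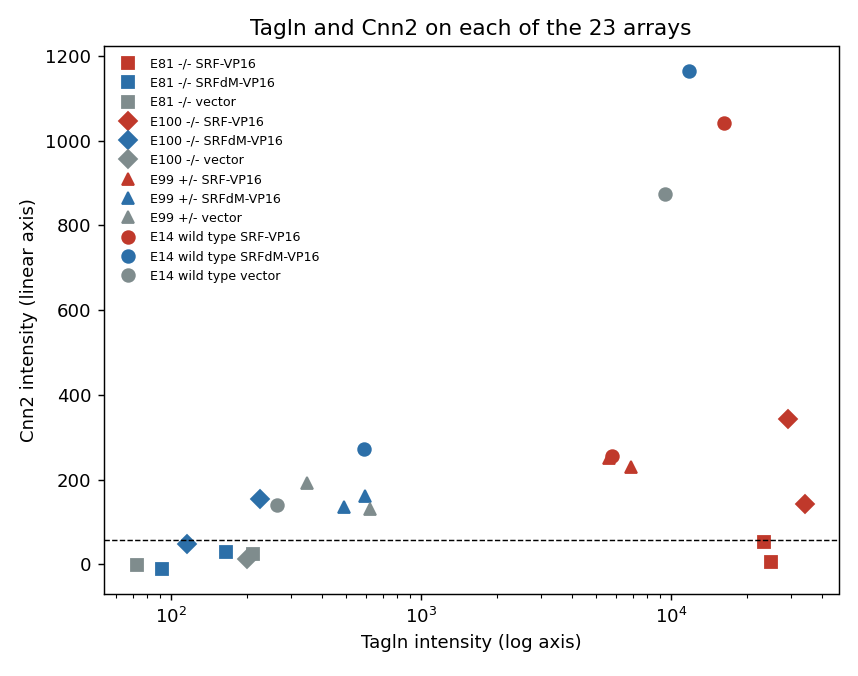
Tagln (log axis) and Cnn2 (linear axis) intensity on each of the 23 arrays; colour gives the plasmid, shape gives the line, and the dashed line is the floor of 58. The 3 E14 arrays with the highest Cnn2, 1 of each plasmid, lie at the top with Cnn2 between 874 and 1165, while the -/- SRF-VP16 arrays have the highest Tagln with Cnn2 of 342 or less.

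No member passed the test of SRFdM-VP16 against vector over the 4 lines. The changes were 0.16 ± 0.75 for Tagln, -0.24 ± 0.32 for Tagln2, 0.16 ± 0.62 for Cnn1 and 0.32 ± 0.47 for Cnn2, and none had an unadjusted p under 0.05 in limma's fit (adjusted p from 0.76 to 0.95). Over all probe sets 0.799% were called in this comparison, 3 higher and 74 lower with SRFdM-VP16, and the median log2 change of all probe sets was -0.205. The largest difference in 1 line was in Cnn1 in E81, which was 485 and 472 with SRFdM-VP16 and below the floor on both vector arrays. It was at least 8.25-fold higher there (3.04 ± 1.16, adjusted p = 0.24) and did not pass.

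Genes related to the family by sequence or by function were followed in lists. Of 24 smooth-muscle contractile genes 16 were on the array and 11 passed the filter, and 5 of these rose and 0 fell in the -/- lines, with a median log2 change of 1.44 against 0.04 for all probe sets, of which 2.82% passed (239 higher and 33 lower). Csrp1, a LIM protein of smooth muscle, was 7562 to 15958 with SRF-VP16, against -86 to 511 with SRFdM-VP16 (5.46 ± 0.78, adjusted p = 0.0018). Vcl, the focal-adhesion protein vinculin, was 7044 to 11138, against 89 to 1219 (3.92 ± 0.60, adjusted p = 0.0028), and its other probe set gave 1.74. Myl9, a regulatory myosin light chain, was 356 to 2047, against -222 to 23, a rise of at least 12.7-fold (3.67 ± 0.61, adjusted p = 0.0046). Acta2, smooth-muscle alpha-actin, was 9860 to 13779, against -409 to -56, a rise of at least 193-fold (7.60 ± 1.40, adjusted p = 0.0088). Tagln thus rose among several genes of the contractile apparatus. Actg2, smooth-muscle gamma-actin, named here because it completes the count, rose by 1.51 with a probe set open to cross-hybridisation. Csrp2 at -0.03 and Mylk at -0.40, named after their values were seen, are examples of members that did not pass.

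Most other calponin-homology proteins did not pass. Of 44 listed, 26 were on the array and 21 passed the filter. Of these, Actn1 and Actn3 rose and 0 fell, against the 2.82% of all probe sets called, and the median change was 0.01. Actn1, a non-muscle alpha-actinin, was 11300 to 24248 with SRF-VP16, against 3450 to 8198 with SRFdM-VP16 (1.48 ± 0.26, adjusted p = 0.0073), by a probe set that can cross-hybridise; its other probe sets gave 1.33 and 1.97. Actn3, a muscle alpha-actinin, was 263 to 673, against -90 to 243 (1.71 ± 0.38, adjusted p = 0.025), and its other probe set gave 0.63. The other transgelin and calponin paralogues did not pass. Tagln3, the neuronal transgelin, was at or below the floor on 20 of 23 arrays (-0.53 ± 0.39, adjusted p = 0.64). Cnn3, the acidic calponin, was above the floor on 2 of 8 SRF-VP16 arrays and 0 of 15 control arrays (0.09 ± 0.09, adjusted p = 0.76). Of 13 symbols listed for SRF cofactors and partners, which include alternative names of the same gene, 9 were on the array and 8 passed the filter. Of these, 1 rose and 0 fell, in a list too short to set against the 2.82%. This was Fhl2, a LIM-only protein that binds SRF, at 1470 to 3241 with SRF-VP16, against 22 to 741 with SRFdM-VP16 (3.36 ± 0.47, adjusted p = 0.0015).

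**Figure D5:**
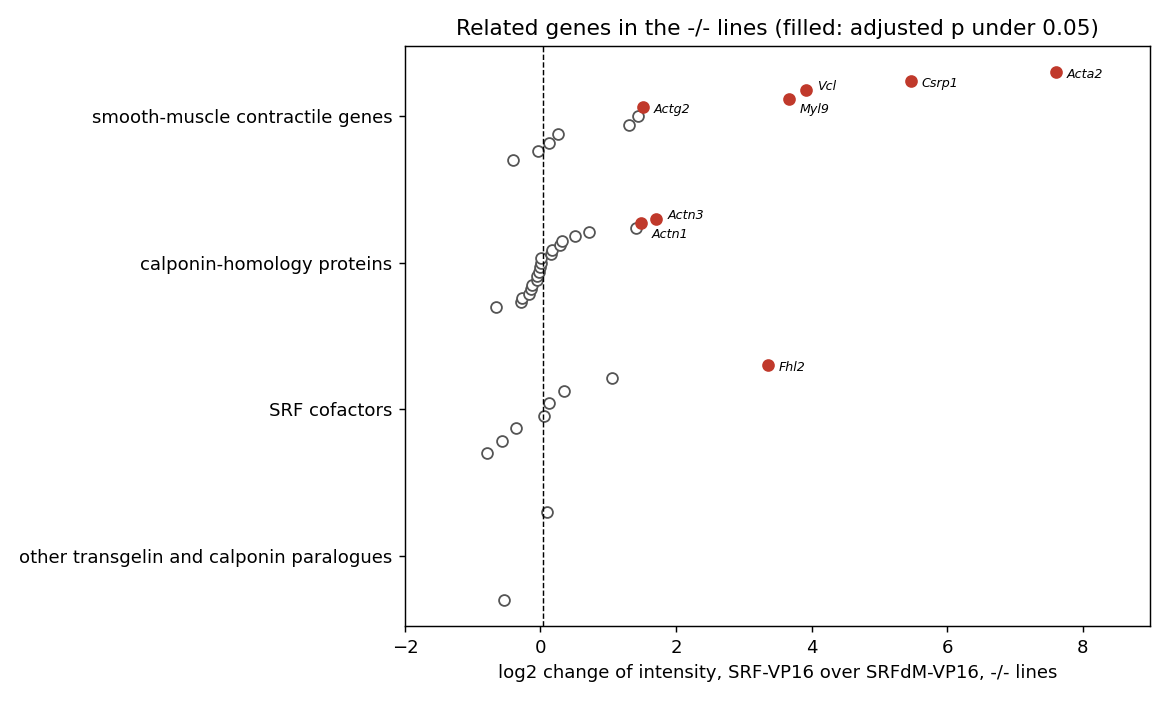
Log2 change of intensity, SRF-VP16 over SRFdM-VP16 in the -/- lines, of each measured gene in the 4 lists; filled points passed an adjusted p under 0.05 and are named, and the dashed line is the median of all probe sets (0.04). The 5 smooth-muscle contractile genes that passed lie to the right, while most of the 21 calponin-homology genes lie near the line.

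Markers of other cells were summed on the same -/- arrays. Primitive-endoderm markers summed to 8175 to 14930 with SRF-VP16, against 3552 to 8844 with SRFdM-VP16, with 7 to 8 and 6 to 8 of 11 above the floor. Most of that gap lay in Sparc, a matrix glycoprotein, at 5617 to 11150 against 644 to 4212; without it the sums were 2531 to 3777 with SRF-VP16 and 2490 to 4632 with SRFdM-VP16. Trophoblast markers summed to 711 to 3041 with SRF-VP16, against 40 to 559 with SRFdM-VP16, with 2 to 5 and 0 to 3 of 6 above the floor, and here the ranges did not overlap. The keratin Krt7 was at 489 to 2584 against -283 to -123, and without it the sums overlapped at 132 to 830 with SRF-VP16 and 40 to 559 with SRFdM-VP16. Fibroblast and feeder markers summed to 556 to 1435 with SRF-VP16, against 526 to 960 with SRFdM-VP16, and early mesoderm markers to 233 to 780, against 92 to 1110, with overlap in both. The part of such cells in the rise of Tagln was not tested.

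The genes whose pattern over the 23 arrays was most like that of each member were found by Pearson's r on the log2 scale among 6809 other genes. The arrays share lines and plasmids, and for Tagln they fall apart by plasmid except for the E14 controls numbered 2, so r describes these arrays only. For Tagln the closest were Lgals1, a galectin (r = 0.966), Anxa1, an annexin, by a probe set that can cross-hybridise (0.965), Acta2 (0.964) and Igf2, an embryonic growth factor (0.960). Krt18, a simple-epithelial keratin (0.956), Ccn1, a secreted matrix protein (0.950), Acta1, skeletal alpha-actin (0.942), and Gsn, the actin-severing gelsolin (0.941), followed. Their changes in the -/- lines, to which this likeness is tied, ran from 2.61 for Lgals1 to 7.60 for Acta2. For Cnn1 the closest were Col4a2, a basement-membrane collagen (0.877), Tapbp, of the antigen-loading complex (0.828), Krt20, an epithelial keratin (0.815), and Zfp36, which binds AU-rich mRNA (0.815).

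For the broadly expressed paralogues likeness was weaker. The genes closest to Tagln2 were Eif3c, a subunit of a translation initiation factor (0.804), Chordc1 (0.804), Cops2, of the COP9 signalosome (0.795), and Plekha7 (0.786), with changes in the -/- lines between 0.09 and 0.62 that did not pass. Those closest to Cnn2 were Gbp2b, a guanylate-binding protein (0.811), Tgfb2, a growth factor (0.799), Antxr2 (0.792) and Naxe (0.767), with changes between 0.01 and 0.38 that did not pass. Their Spearman rho with Cnn2 was 0.627 to 0.674. Their means in the -/- lines, with SRF-VP16 or SRFdM-VP16, were below the floor, from -98 to 35.75. Cnn2 was above the floor on 15 of 23 arrays, so shared floor values enter these r. Among the members themselves r was 0.699 for Tagln and Cnn1, 0.538 for Tagln and Cnn2, 0.127 for Cnn1 and Cnn2 and 0.126 for Tagln and Tagln2.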

How the data were processed

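Total RNA of 23 samples was measured on 1-colour oligonucleotide arrays. The authors deposited a table of linear intensity for each array. How they corrected background and scaled it, with which software and on which genome build, is not given in the sources used here. A share of 29.1% of the values was 0 or negative. Intensities were used as deposited. After 66 control probe sets had been left out of 12502, the filter asked for a value above an array's 40th percentile in 2 or more arrays; 9643 probe sets met it and 2793 did not. Values were raised to a floor of 58, the 40th percentile of all values, and put on the log2 scale. The number of arrays limits the precision. Gene names come from the platform annotation (10141 probe sets with 1 symbol, 362 with several, 1933 with none), and locations and start regions from RefSeq tables of GRCm38.p6.

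The model was fitted with limma 3.58.1 (R 4.3.3) to all arrays, with a mean for each of the 12 groups and variances moderated along intensity (11 residual degrees of freedom), and p-values were adjusted by Benjamini-Hochberg over all probe sets kept. Tests were two-sided. Fold changes are ratios on the floored log2 scale, and intensities are mean ± SD. Differences between paralogues were tested by exact permutation of arrays, across E81 and E100 together for the -/- lines and within each line when all lines were used. The limma fit was tried on simulated data for the SRF-VP16 effect in the -/- lines and over the 4 lines. Those values were independent and had no floor, unlike the data. The permutation test was tried on a set of numbers with a known answer. Replicate numbers were not used as a block, since nothing in the labels says what they mark.

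Members, gene lists, comparisons and alternatives were chosen with earlier results of these data known. Named genes were all members, up to 4 called genes per list with the smallest adjusted p, the 8 genes most like Tagln and the 4 most like each other member, and Tagln3 and Cnn3, with the exceptions stated. Marker lists covered ES cells, differentiated smooth muscle, fibroblasts and feeder cells, primitive endoderm, trophoblast and early mesoderm. Alternatives were another filter, floor or scale, quantile normalization, division by the array median, a replicate term, no trend, a fit to the compared arrays alone, vector in place of SRFdM-VP16, single lines, and leaving out arrays.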

Additional observations from a re-analysis of the deposited data

How the results depend on the processing

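Tagln kept its rise and its call in all 20 alternatives in the -/- lines (6.52 to 7.85 on the log2 scale) and in all 27 over the 4 lines (4.62 to 5.70). Cnn1 over the 4 lines kept its call in 12 of 27 alternatives, with changes from 1.93 to 3.17 and adjusted p from 0.00461 to 0.12, and in the -/- lines it passed in 3 of 20. The number of members called over the 4 lines, 2 as reported, was 1 with no filter, with an inverse hyperbolic sine, with division by the array median and with the replicate block within each line, and 1 to 2 when an array was left out. In that block fit Cnn1 was unchanged at 2.52 (adjusted p = 0.064). Whether replicate numbers pair the arrays is unsettled: deviations of same-numbered arrays correlated above 0.1 in 6 of 10 pairs of groups, with all 4 in the -/- lines among them, and the range was -0.349 to 0.417. The number called in the -/- lines, 1 as reported, was 2 with a floor at the 60th percentile, with only the arrays of the comparison and with vector as the control. In the difference between -/- and the other lines, 0 members passed as reported and 1, Tagln, without both E14 control arrays numbered 2 (3.83, adjusted p = 0.0463). Between -/- and wild type without the activator 0 to 2 members passed when an array was left out, with Tagln from -5.06 to -2.48 and Cnn2 from -3.42 to -2.10. Cnn1 minus Cnn2 in the -/- lines was 1.98 with the inverse hyperbolic sine and 1.86 with division by the median (exact p = 0.0857 in both).

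Signs turned only in changes that did not pass. With a floor at the 60th percentile the E81 minus E100 difference of Tagln was -0.38 and SRFdM-VP16 against vector was -0.14 for Cnn1. With the inverse hyperbolic sine the -/- minus other lines difference was 1.04 for Tagln2 and -0.72 for Cnn1, E81 minus E100 was -0.020 for Tagln, and -/- against wild type was -0.032 for Tagln2. Quantile normalization and division by the median gave -0.065 and -0.054 for Tagln2 in E99, -0.86 and -0.92 for Tagln in E81 minus E100, and 0.18 and 0.11 for Tagln2 in SRFdM-VP16 against vector. With vector as the control, the E14 change was -0.74 for Tagln2 and 0.56 for Cnn2, and E81 minus E100 was 2.76 for Cnn1. E100 alone gave -0.43 for Tagln2. Without both E14 control arrays numbered 2, Cnn2 in E14 was 0.92, and the -/- minus other lines difference was -0.031 for Cnn1 and -0.20 for Cnn2. Vector arrays alone gave -0.37 for Tagln2 and -0.22 for Cnn1 in -/- against wild type.

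Leaving out 1 array gave ranges across 0 for Tagln2 in the -/- lines (-0.12 to 0.49) and in E99 (-0.027 to 1.10). In E14 the ranges were -0.27 to 4.04 for Tagln and -1.18 to 0.92 for Cnn2. In the -/- minus other lines difference they were -0.14 to 1.32 for Cnn1 and -0.20 to 0.85 for Cnn2, and in E81 minus E100 -0.47 to 0.49 for Tagln. For SRFdM-VP16 against vector they were -0.49 to 0.80 for Tagln, -0.34 to 0.66 for Cnn1 and -0.0092 to 0.65 for Cnn2, and for -/- against wild type -0.24 to 1.75 for Cnn1. The cause of these shifts was not tested. A change with all arrays at the floor has no direction, so 11 combinations of result and setting gave no value, 8 of them for Tagln2 at the higher floor.

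Counts of probe sets called, from which the shares in the report come, ranged from 97 to 514 around 272 in the -/- lines, from 108 to 432 around 189 over the 4 lines, and from 0 to 35 around 2 in E14. They ranged from 0 to 23 around 4 in E99, from 6 to 71 around 13 for the difference between lines, from 0 to 430 around 14 for E81 minus E100, from 0 to 372 around 77 for SRFdM-VP16 against vector, and from 2 to 82 around 8 for -/- against wild type.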
